A study of Mus musculus with 12 samples.

Results

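The 10 genes described here, Bbs1, Bbs2, Bbs4, Bbs5, Bbs7, Bbs9, Ttc8, Arl6, Bbs12 and Lztfl1, are linked to Bardet-Biedl syndrome or to the protein complex named after it, and they were taken by gene symbol from the 37991 genes of the deposited tables. Each symbol matched a single row, and all 10 genes passed the filters of every test. Their mRNA was measured in adult mouse retina in 12 RNA-seq libraries, 3 for each of 4 classes. The F0 classes were the inbred strains C57BL/6J and Cast/EiJ, the latter a wild-derived strain. The F1 classes were their reciprocal hybrids, named with the father's strain first: F1 B6xCast had C57BL/6J fathers and Cast/EiJ mothers, while F1 CastxB6 had fathers of Cast/EiJ and mothers of C57BL/6J. Mice were untreated males aged 8 weeks, and each library came from a separate pool of 6 to 8 whole retinas, so that a value is an average over several eyes and over all retinal cell types.

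Bardet-Biedl syndrome is an inherited disorder of the primary cilium that includes retinal degeneration, obesity, extra digits and kidney disease. Most of its proteins form or serve the BBSome, a coat-like complex that moves membrane proteins out of cilia. In photoreceptors the outer segment is a modified cilium, and loss of BBSome function lets proteins that belong elsewhere accumulate there. Bbs1, Bbs2, Bbs4, Bbs5, Bbs7, Bbs9 and Ttc8, also called Bbs8, encode BBSome subunits. Arl6, also called Bbs3, encodes the small GTPase that recruits the complex to membranes, Bbs12 encodes a chaperonin-like protein needed for assembly of its core, and Lztfl1 encodes a regulator of its entry into cilia.

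Values were deposited in 3 forms that are used below. Count equivalents are reads assigned to a gene, or to each allele of it in F1, by the authors' model after scaling. The value of a single F1 allele is not a fraction of the F0 value. For Bbs1 the mean was 1650 in F0 C57BL/6J and 1675 for the C57BL/6J allele over the F1 libraries. Unique hits are unscaled read pairs with only 1 possible gene and, in F1, only 1 possible allele of origin. Expression is the exponential of the deposited natural log, in FPKM-like units that divide by transcript length and so allow genes to be set side by side. The total of unique hits per library ran from 8158534 to 11888819 in F0 and from 8808577 to 12363291 in F1. In both F0 classes and in F1 B6xCast, replicate 1 lay apart from the others. A chi-square of the unique hits per degree of freedom was 5.32 to 11.6 for pairs with replicate 1 and 1.47 to 3.04 between replicates 2 and 3, while all pairs of F1 CastxB6 gave 1.35 to 1.79.

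Marker genes of retinal cell types differed between the F0 strains. The summed expression of 6 rod markers was 15780 to 15950 FPKM-like units in F0 C57BL/6J and 16800 to 17590 in F0 Cast/EiJ, where Sag passed the test with higher levels and none of the 6 with lower levels. For 5 cone markers the sum was 402 to 476 and 294 to 353, with 1 of 3 autosomal markers tested called lower in Cast/EiJ, and for 4 Mueller glia markers it was 982 to 1181 and 868 to 1007, with Glul and Apoe called lower and the other 2 not called (Rlbp1 at 0.23 and Slc1a3 at 0.13 on the log2 scale). Markers of the pigment epithelium, a neighbouring tissue, summed to 8.87 to 10.9 in F0 C57BL/6J and 2.59 to 3.79 in F0 Cast/EiJ, with 2 of 4 tested called lower, and its defining markers Rpe65 and Best1 were at most 1.52 and 0.247 in any column. The sum of 5 lens markers was 26.8 to 41.1 and 31.9 to 43.6 with no call, and that of 3 blood markers 44.6 to 60.6 and 35.1 to 56.3. Of the 2 blood markers tested, Hbb-b1 was called lower (log2 -1.13), while Hba-a1 lay in the other direction and was not called (log2 0.52). The part of these markers in the strain differences below was not tested, and in bulk tissue fewer cells of a type and less RNA per cell cannot be told apart.

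Promoter sequences of all 10 genes, from 250 bases before to 50 after the start, were taken from RefSeq on GRCm38.p6, with a second start for Arl6. They were searched for the X-box, the motif of RFX factors that is known from promoters of ciliary genes, spelled GTNNCC and GGNNAC with 1 to 3 bases between them, which reads the same on both strands. The search was chosen after the sequences had been seen. Bbs1, Bbs4, Bbs7 and Lztfl1 held a match, 4 of 10 genes, against 3.49% of 32851 promoters of this length. The photoreceptor motif TAATCC, sought on both strands, was found in Bbs1 alone, against 7.06% of promoters, and did not overlap the X-box. The promoters of Bbs7 and Bbs12, which carried the largest strain differences of one sign in F0 and F1, and of Lztfl1, where the 3 measures diverged, are given 5′ to 3′ with X-box matches in capitals.
Bbs7, chr3:36613340-36613639, minus strand: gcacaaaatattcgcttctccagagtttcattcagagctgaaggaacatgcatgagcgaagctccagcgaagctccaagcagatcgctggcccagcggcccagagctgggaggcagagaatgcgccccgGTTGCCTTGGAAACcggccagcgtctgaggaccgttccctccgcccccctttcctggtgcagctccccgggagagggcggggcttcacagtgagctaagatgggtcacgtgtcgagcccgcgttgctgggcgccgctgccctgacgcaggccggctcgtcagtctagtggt
Bbs12, chr3:37312304-37312603, plus strand: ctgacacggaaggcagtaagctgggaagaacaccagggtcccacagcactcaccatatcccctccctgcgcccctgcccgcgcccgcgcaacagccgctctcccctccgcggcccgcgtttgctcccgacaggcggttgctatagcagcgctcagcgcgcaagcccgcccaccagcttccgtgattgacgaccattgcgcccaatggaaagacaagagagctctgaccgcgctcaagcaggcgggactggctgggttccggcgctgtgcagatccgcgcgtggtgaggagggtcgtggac
Lztfl1, chr9:123717576-123717875, minus strand: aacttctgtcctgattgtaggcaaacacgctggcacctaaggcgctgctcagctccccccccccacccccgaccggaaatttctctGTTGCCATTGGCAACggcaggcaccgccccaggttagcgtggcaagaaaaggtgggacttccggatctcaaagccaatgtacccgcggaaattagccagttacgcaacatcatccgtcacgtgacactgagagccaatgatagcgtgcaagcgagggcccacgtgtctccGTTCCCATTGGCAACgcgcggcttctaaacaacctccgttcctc
The match began at -121 from the start in Bbs7 and at -164 and 6 in Lztfl1, and none was found in Bbs12. The matches of Bbs1 and Bbs4, which began at 1 and 23, are shown in windows of 30 bases to set them beside the others.
Bbs1, within chr19:4906578-4906877, minus strand: tgagctgGTTGCCAAGGCGACgcctgggaa
Bbs4, within chr9:59353459-59353758, minus strand: tcagctgGTCGCCCGGGAAACggtcggctt
These are sequences of the reference strain C57BL/6J. The Cast/EiJ bases at these positions were not analysed here, and a match of letters is a description and not a binding site.

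The 10 genes had F0 strain means between 4.59 and 50.5 FPKM-like units (n = 3), against a median of 6.53 over all genes tested in F0. In F0 C57BL/6J, Bbs7 was highest at 50.5 ± 3.57 (SD, n = 3), followed by Arl6 at 49.1 ± 6.54, Ttc8 at 40.3 ± 7.02, Bbs2 at 35.9 ± 1.93 and Bbs4 at 33.2 ± 2.94. The libraries of each of these genes overlapped those of the next. Below them, and separated from Bbs4 and from each other, stood Bbs9 at 25.9 ± 1.96 and Bbs5 at 23.1 ± 1.56. Bbs1 at 15.4 ± 0.635 and Lztfl1 at 13.8 ± 1.82 overlapped, and Bbs12, the assembly factor, was lowest at 7.41 ± 0.871.

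In F0 Cast/EiJ the order was not the same. Arl6 was highest at 41.5 ± 4.72, and its libraries overlapped those of Bbs9 at 36.0 ± 2.79, which in turn overlapped Ttc8 at 34.6 ± 0.43. Next and apart came Bbs2 at 29.5 ± 0.715, and apart from it Bbs4 at 28.1 ± 0.83, which overlapped Lztfl1 at 27.1 ± 3.46, as did Lztfl1 and Bbs5 at 26.4 ± 2.97. Bbs7 ranked 8 of 10 at 18.6 ± 1.16 rather than first, ahead of Bbs1 at 14.4 ± 0.738 and Bbs12 at 4.59 ± 0.236. Over both strains Arl6 lay at the percentile 93.1 of the tested genes and Bbs12 at 47.6, with the other 8 genes between 72.8 and 90.9.

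**Figure D1:**
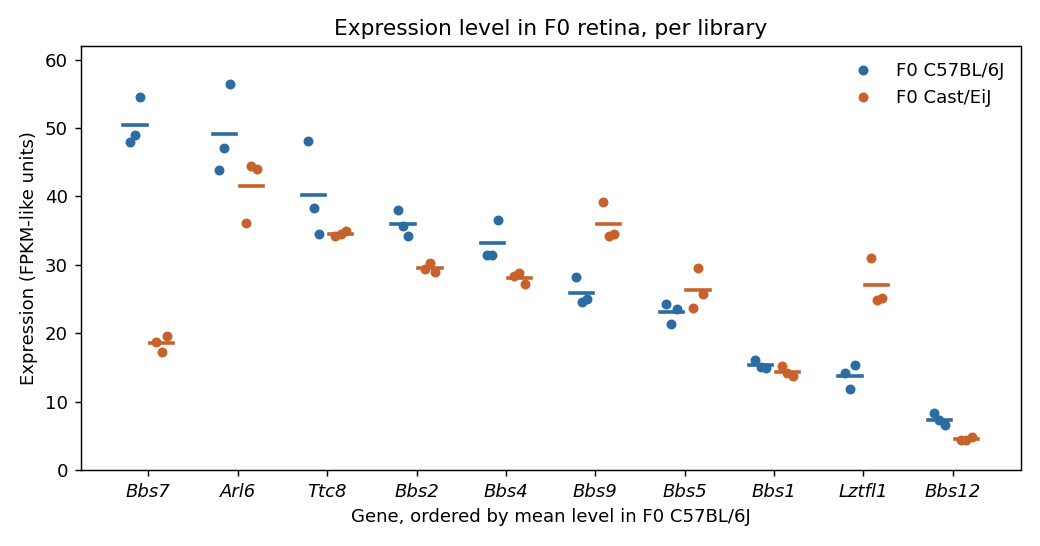
Expression in FPKM-like units (vertical axis) of the 10 genes in the 6 F0 libraries, with 1 point per library and a line at the mean of 3. Bbs7 falls from 50.5 in C57BL/6J to 18.6 in Cast/EiJ, while Bbs9 and Lztfl1 are higher in Cast/EiJ.

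Strain differences were measured as log2 of Cast/EiJ over C57BL/6J on count equivalents, between the 6 F0 libraries and, within the 6 F1 libraries, between the alleles. Of the 10 genes, 5 passed the F0 test, 2 higher and 3 lower in Cast/EiJ, beside 33.8% of all 14452 autosomal genes tested. In the allelic test 8 of the 10 passed, Bbs9 with a higher Cast/EiJ allele and 7 with a lower one, beside 47% of 13414 genes. The median log2 difference of the 10 genes was -0.14 in F0 and -0.17 between alleles, against 0.032 and 0.0014 over all genes tested. The median size without sign was 0.25 in F0 and 0.20 between alleles, against 0.26 and 0.20 over all genes. A direct test of the F0 difference against the allelic difference passed for Bbs2, Bbs5 and Bbs7, 3 of 10, beside 14% of genes. Maternal and paternal alleles differed in Bbs5 alone, 1 of 10, beside 0.492% of genes.

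**Figure D2:**
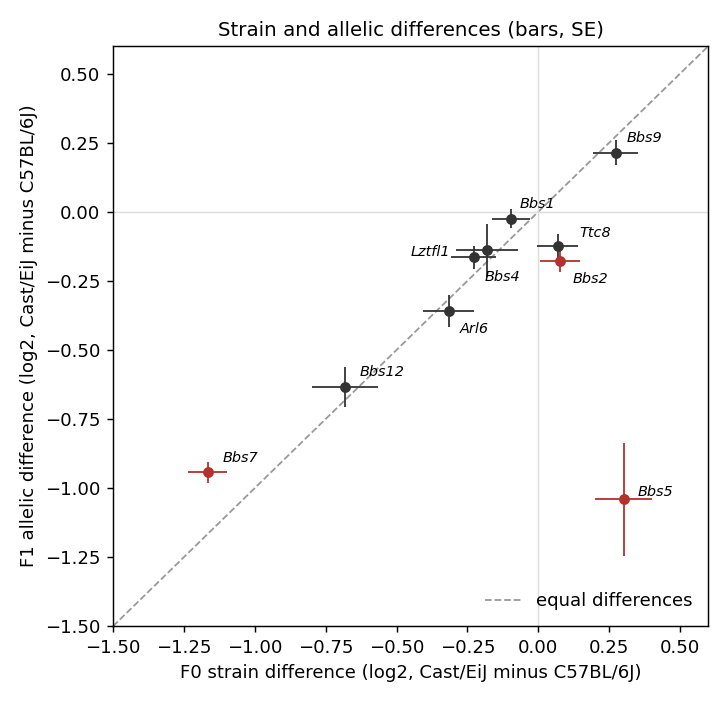
F0 strain difference (horizontal axis) against F1 allelic difference (vertical axis) on log2 count equivalents for the 10 genes, with bars of 1 SE and a dashed line of equal differences. Bbs7, Bbs12, Arl6 and Bbs9 passed both the F0 and the allelic test with the same sign, and the red points, Bbs2, Bbs5 and Bbs7, passed the test of the difference between the axes.

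Bbs7, a subunit with a beta-propeller that is held in the core of the BBSome, had the largest F0 strain difference of the 10 genes. It lies on the minus strand at chr3:36472064-36512399 of NCBI37. Its count equivalents were 2120, 2020 and 2080 in F0 C57BL/6J and 937, 871 and 966 in F0 Cast/EiJ. In F1 B6xCast the C57BL/6J allele had 2290, 2390 and 2290 and the Cast/EiJ allele 1080, 1160 and 1150, and in F1 CastxB6 the alleles had 2090, 2320 and 2110 against 1220, 1220 and 1180. Every Cast/EiJ value lay below every C57BL/6J value, in F0 and in both crosses.

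Bbs7 was 2.24-fold lower in F0 Cast/EiJ (log2 -1.17, SE 0.069, adjusted p = 3.26e-06) and 1.92-fold lower from the Cast/EiJ allele in F1 (log2 -0.94, SE 0.037, adjusted p = 2.03e-12). The allelic difference was -1.04 in F1 B6xCast and -0.85 in F1 CastxB6, and their difference did not pass the test of maternal against paternal alleles (adjusted p = 0.577). Unique hits, of which Bbs7 had the most among the 10 genes in F1, gave 10708 to the C57BL/6J allele and 5400 to the Cast/EiJ allele, a Cast/EiJ share of 33.5% (exact binomial 95% interval 32.8 to 34.3, for counting error only). The F0 difference exceeded the allelic one by 0.22 on the log2 scale (95% interval of F0 minus allelic difference -0.363 to -0.0808, adjusted p = 0.035). That call was lost without any one of 8 libraries, with adjusted p between 0.0515 without F0 Cast/EiJ replicate 1 and 0.107 without F0 Cast/EiJ replicate 2. The others were F0 C57BL/6J replicates 1 and 3, F1 B6xCast replicates 2 and 3, and F1 CastxB6 replicates 1 and 3.

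Bbs12 and Arl6, which act on the BBSome from outside it, were also lower from Cast/EiJ. Bbs12 is at chr3:37211476-37220375 on the plus strand, 699076 bp beyond the end of Bbs7 on the same chromosome. It had 374, 332 and 296 count equivalents in F0 C57BL/6J and 198, 202 and 221 in F0 Cast/EiJ. In F1 B6xCast the alleles had 309, 303 and 323 from C57BL/6J and 181, 211 and 192 from Cast/EiJ, and in F1 CastxB6 284, 347 and 354 against 208, 204 and 240. As in Bbs7, no Cast/EiJ value reached a C57BL/6J value. Bbs12 was 1.61-fold lower in F0 (log2 -0.68, SE 0.12, adjusted p = 0.0022) and 1.55-fold lower between alleles (log2 -0.63, SE 0.071, adjusted p = 1.38e-06), and the difference between these was -0.048 (95% interval -0.323 to 0.227). The annotation places Bbs12 inside Fgf2 on the same strand and across the start of Cetn4 on the other, with means of 33.4 and 93.6 count equivalents in F0 C57BL/6J. The libraries did not keep strand, so reads of shared positions cannot be told apart.

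Arl6, on the minus strand at chr16:59612775-59639217, had 856, 875 and 998 count equivalents in F0 C57BL/6J and 668, 756 and 766 in F0 Cast/EiJ. Its alleles had 922, 1160 and 963 from C57BL/6J against 715, 874 and 780 from Cast/EiJ in F1 B6xCast, and 950, 965 and 958 against 742, 760 and 734 in F1 CastxB6. The Cast/EiJ allele was lower in 6 of 6 libraries, with log2 ratios within -0.41 and -0.30. Arl6 was 1.28-fold lower from the Cast/EiJ allele (log2 -0.36, SE 0.058, adjusted p = 7.7e-05) and 1.25-fold lower in F0 (log2 -0.32, SE 0.091, adjusted p = 0.0259). The F0 groups did not overlap in count equivalents, but the call was lost without F0 C57BL/6J replicate 2 or 3 (adjusted p = 0.0552 and 0.0897) or F0 Cast/EiJ replicate 1 or 2 (adjusted p = 0.0726 and 0.053). It was also lost without a filter on low values (adjusted p = 0.117) and on the deposited log expression (log2 -0.24, adjusted p = 0.19), where the F0 groups overlapped.

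**Figure D3:**
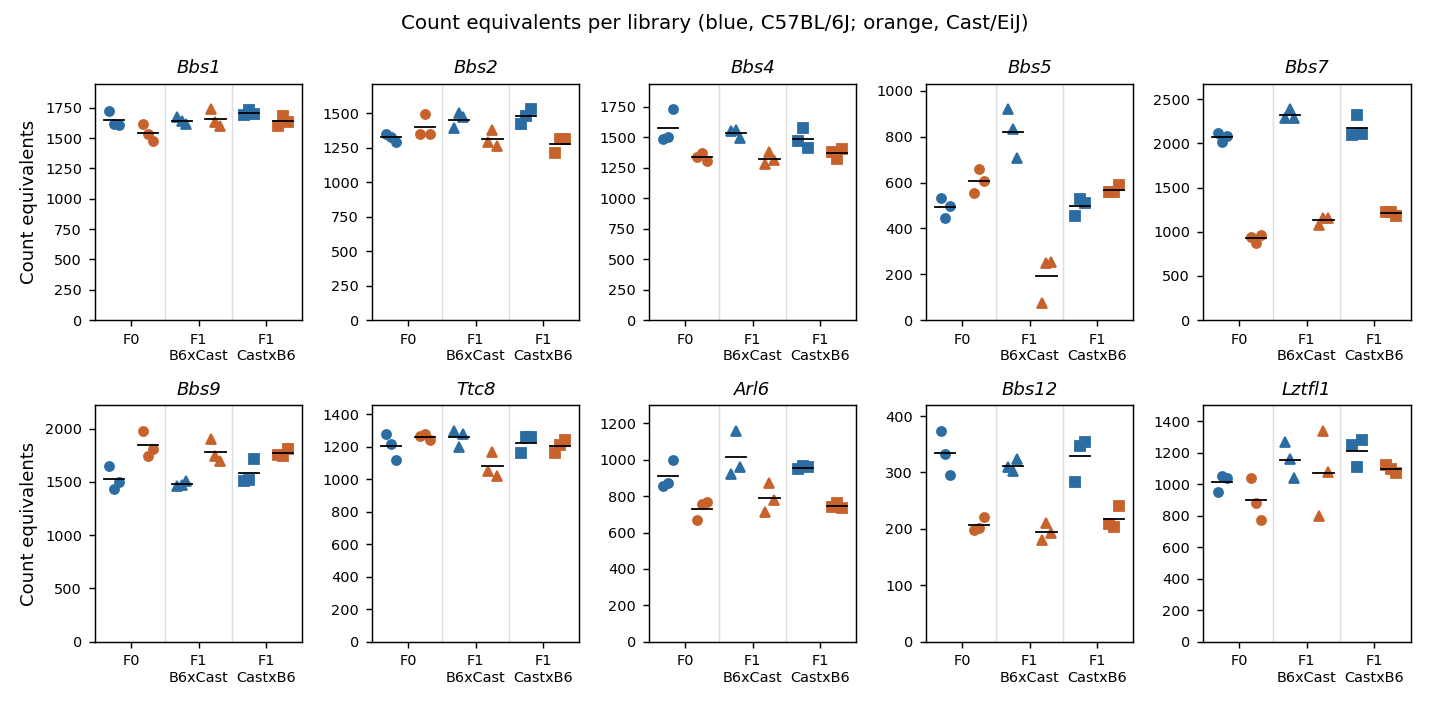
Count equivalents (vertical axis, from 0) of the 10 genes in F0 and, by allele, in each F1 cross, with 1 point per library and a line at the mean of 3. In Bbs7 the Cast/EiJ points lie between 871 and 1220 and the C57BL/6J points between 2020 and 2390, and in Bbs5 the alleles are far apart in F1 B6xCast alone.

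Bbs9, which encodes a scaffold subunit of the BBSome, was the one gene of the 10 called with a higher Cast/EiJ allele. It is at chr9:22280159-22692724 on the plus strand, with 36477048 bp between it and Bbs4. Count equivalents were 1650, 1430 and 1500 in F0 C57BL/6J and 1980, 1740 and 1810 in F0 Cast/EiJ, without overlap. In F1 B6xCast the C57BL/6J allele had 1460, 1470 and 1510 and the Cast/EiJ allele 1900, 1740 and 1700, and in F1 CastxB6 the values were 1510, 1520 and 1710 against 1750, 1740 and 1810. The Cast/EiJ allele was higher in 6 of 6 libraries. The log2 difference was 0.27 in F0 (SE 0.081, adjusted p = 0.0295) and 0.21 between alleles (SE 0.045, adjusted p = 8.95e-04). In FPKM-like units the F0 difference was larger, at 25.9 ± 1.96 against 36.0 ± 2.79. The F0 call was lost without F0 C57BL/6J replicate 2 or 3 (adjusted p = 0.112 and 0.0814) or F0 Cast/EiJ replicate 1 or 3 (adjusted p = 0.0839 and 0.066), and without a filter on low values (adjusted p = 0.125). Within the span of Bbs9 the table lists 3 pseudogenes on the other strand with at most 17 unique hits in any column.

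Bbs4, Bbs2 and Ttc8 had called allelic differences between -0.18 and -0.13. Bbs4, at chr9:59169773-59201315 on the minus strand, encodes the subunit that links the complex to centriolar satellites. Its F0 values were 1480, 1500 and 1730 in C57BL/6J and 1340, 1370 and 1300 in Cast/EiJ. The Cast/EiJ allele was lower in 6 of 6 F1 libraries, by 0.17 on average (mean log2 ratio -0.17 ± 0.10, SD, n = 6; adjusted p = 0.00384). In F0 the groups did not overlap and the log2 difference was -0.23 (SE 0.078), just short of the threshold in limma (adjusted p = 0.0511) and past it in edgeR on unique hits (adjusted p = 0.0226), and in limma without F0 C57BL/6J replicate 1 (adjusted p = 0.04).

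Bbs2, whose product pairs with that of Bbs7, lies on the minus strand at chr8:96591854-96622711. It had 1350, 1330 and 1290 count equivalents in F0 C57BL/6J and 1350, 1490 and 1350 in F0 Cast/EiJ. The groups met at 1350, and the log2 difference of 0.076 (95% interval -0.081 to 0.234) did not pass the test. In F1 the Cast/EiJ allele was lower in 6 of 6 libraries, with log2 ratios from -0.23 to -0.11 and an estimate of -0.18 (SE 0.038, adjusted p = 9.8e-04). The difference between F0 and allelic values was 0.26 (SE 0.07, adjusted p = 0.0211). It missed the threshold without F0 C57BL/6J replicate 3 (adjusted p = 0.0586), without F0 Cast/EiJ replicate 2 (adjusted p = 0.0702) and in edgeR on unique hits (adjusted p = 0.0728). On the deposited log expression the F0 difference turned to -0.28 (adjusted p = 0.0214) and the difference between F0 and alleles to -0.034 (adjusted p = 0.911). There were 36.9 ± 1.17 count equivalents per FPKM-like unit in F0 C57BL/6J and 47.3 ± 1.65 in F0 Cast/EiJ, a ratio that grows with the length of the transcripts to which reads were assigned.

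Ttc8, at chr12:100158784-100221448 on the plus strand, had F0 values of 1120 to 1280 in C57BL/6J and 1240 to 1280 in Cast/EiJ, and the log2 difference of 0.068 (95% interval -0.096 to 0.233) did not pass. The Cast/EiJ allele was lower in 5 of 6 F1 libraries and equal in the other, with an allelic difference of -0.13 (SE 0.044, adjusted p = 0.0255). This call was lost without F1 B6xCast replicate 1 or 3 (adjusted p = 0.0972 and 0.118) or F1 CastxB6 replicate 2 or 3 (adjusted p = 0.0864 and 0.0621). By cross, the allelic difference of Ttc8 was -0.22 in F1 B6xCast (adjusted p = 0.00956) and -0.027 in F1 CastxB6 (adjusted p = 0.776). The test of maternal against paternal alleles did not pass (adjusted p = 0.725). In FPKM-like units the mean log2 allele ratio of Ttc8 was larger in size, at -0.43. Bbs1, the subunit that contacts Arl6, had the smallest allelic difference of the 10 genes. It is on the minus strand at chr19:4886898-4906627. It had 1610 to 1720 count equivalents in F0 C57BL/6J and 1480 to 1620 in F0 Cast/EiJ, and both alleles lay between 1600 and 1740 in F1. Its log2 difference was -0.097 in F0 (95% interval -0.250 to 0.057) and -0.025 between alleles (95% interval -0.096 to 0.046), and neither passed. With 6249 hits from C57BL/6J and 5994 from Cast/EiJ, the Cast/EiJ share was 49.0% (exact binomial 95% interval 48.1 to 49.9).

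Bbs5, a subunit that binds phosphoinositides, gave different values in the 2 crosses. It lies on the plus strand at chr2:69485228-69505628. Count equivalents in F0 were 532, 447 and 499 in C57BL/6J and 554, 661 and 606 in Cast/EiJ, where the log2 difference was 0.30 (SE 0.1, adjusted p = 0.046). In F1 CastxB6 the alleles had 452, 526 and 510 from C57BL/6J and 560, 557 and 591 from Cast/EiJ, close to the F0 values. In F1 B6xCast they had 921, 835 and 705 from C57BL/6J and 74, 248 and 252 from Cast/EiJ, so that the C57BL/6J allele lay above and the Cast/EiJ allele below all values of F0 and of the other cross.

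The allelic difference of Bbs5 was -2.28 in F1 B6xCast (SE 0.29, adjusted p = 1.03e-05) and 0.20 in F1 CastxB6 (SE 0.29, adjusted p = 0.641). The test of maternal against paternal alleles passed (log2 -1.24, SE 0.2, adjusted p = 0.00424), and the paternal allele, which is C57BL/6J in B6xCast and Cast/EiJ in CastxB6, was higher in 6 of 6 libraries. The averaged allelic difference was -1.04 (SE 0.2, adjusted p = 4.79e-04), and F0 minus allelic difference was 1.34 (SE 0.37, adjusted p = 0.023).

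Unique hits on the alleles of Bbs5 were few and gave a different picture. In F1 B6xCast the C57BL/6J allele had 41, 44 and 31 hits and the Cast/EiJ allele 25, 38 and 25. In F1 CastxB6 they were 36, 32 and 29 against 30, 30 and 38. The Cast/EiJ share was 43.1% (exact binomial 95% interval 36.2 to 50.2) in B6xCast and 50.3% (43.0 to 57.5) in CastxB6, and these intervals overlap. EdgeR on unique hits called neither the averaged allelic difference (log2 -0.16, adjusted p = 0.4) nor the maternal against paternal one (log2 -0.21, adjusted p = 1) nor F0 minus allelic difference (log2 0.43, adjusted p = 0.0857), and the F0 difference passed there (log2 0.28, adjusted p = 0.0447). DESeq2 on the same hits (adjusted p = 0.0634), limma with TMM factors (adjusted p = 0.0682) and limma on log expression (log2 0.19, adjusted p = 0.203) did not call it.

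An F1 library had on average 66.5 allele-specific hits of Bbs5 against 423 unique hits in an F0 library, or 15.7%. This ratio had a median of 119.5% over 10968 autosomal genes with at least 50 F0 hits, and Bbs5 stood at percentile 6.03. The posterior SD that the authors deposited with the log expression was 0.0526 to 0.0624 for Bbs5 in F0, and 0.113 to 0.356 for its alleles in F1. The number of count equivalents per FPKM-like unit was also lowest for the Cast/EiJ allele of F1 B6xCast, at 11.5 ± 3.78 against means of 20.5 to 23.0 in the other 5 columns. Leaving out F1 B6xCast replicate 1, the library with 921 and 74, changed the averaged allelic difference to -0.71 and the maternal against paternal one to -0.91, both still called. The F0 call was lost without F0 C57BL/6J replicate 2 or 3 (adjusted p = 0.157 and 0.0906) or F0 Cast/EiJ replicate 2 or 3 (adjusted p = 0.152 and 0.107). F0 minus allelic difference was not called without F0 C57BL/6J replicate 2 (adjusted p = 0.0635), F0 Cast/EiJ replicate 2 (adjusted p = 0.0597) or F1 CastxB6 replicate 2 (adjusted p = 0.0535).

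**Figure D4:**
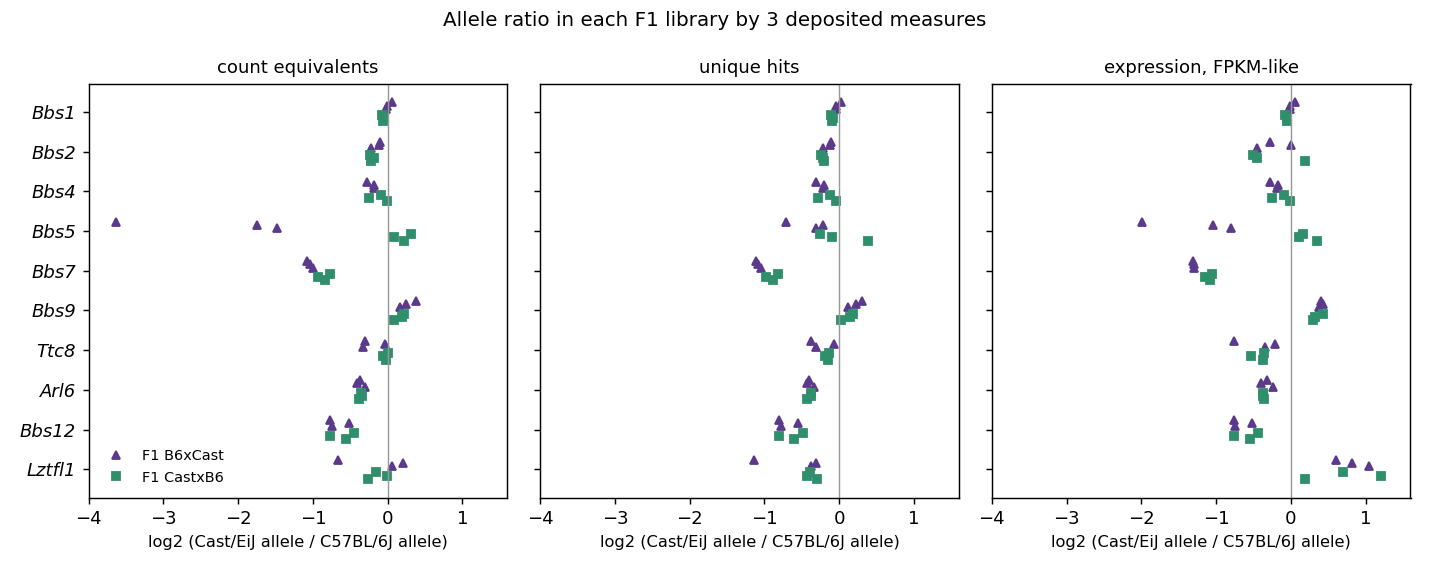
The log2 ratio of Cast/EiJ to C57BL/6J allele (horizontal axes) in each of 6 F1 libraries by count equivalents, unique hits and FPKM-like expression, for the 10 genes. Bbs5 in F1 B6xCast reaches -3.64 by count equivalents and -0.71 by unique hits, and Lztfl1 lies below 0 by unique hits and above 0 by expression in all 6 libraries.

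For Lztfl1, the 3 measures gave 3 different results. The gene is at chr9:123603534-123626743 on the minus strand. Its count equivalents were 948, 1050 and 1040 in F0 C57BL/6J and 1040, 881 and 774 in F0 Cast/EiJ, which overlap, and the log2 difference of -0.18 (95% interval -0.429 to 0.066) did not pass. The alleles had 1270, 1160 and 1040 from C57BL/6J against 798, 1340 and 1080 from Cast/EiJ in F1 B6xCast, and 1250, 1110 and 1280 against 1120, 1100 and 1070 in F1 CastxB6, with an allelic difference of -0.14 (95% interval -0.342 to 0.063, adjusted p = 0.249).

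Expression of Lztfl1 in FPKM-like units was 14.2, 11.8 and 15.4 in F0 C57BL/6J and 31.1, 24.9 and 25.2 in F0 Cast/EiJ, and the Cast/EiJ allele was higher in 6 of 6 F1 libraries. Limma on the deposited log expression gave log2 differences of 0.97 in F0 (adjusted p = 0.00199) and 0.76 between alleles (adjusted p = 7.3e-05). By unique hits the Cast/EiJ allele was instead lower in 6 of 6 libraries, with 2410 hits against 3321 from C57BL/6J, a share of 42.1% (exact binomial 95% interval 40.8 to 43.3), and edgeR gave -0.44 (adjusted p = 3.67e-04). F1 B6xCast replicate 1 had the lowest ratio, at 242 against 533 hits. Without replicate 1 of that cross and of both F0 classes the edgeR estimate was -0.33 (adjusted p = 8.61e-07), and the F0 difference in count equivalents was -0.34 and passed (adjusted p = 0.0213), as it did without F0 Cast/EiJ replicate 1 (-0.29, adjusted p = 0.0468).

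There were 74.4 ± 12.5 count equivalents of Lztfl1 per FPKM-like unit in F0 C57BL/6J and 33.1 ± 2.34 in F0 Cast/EiJ. This log2 difference in the ratio, -1.17, was larger in size than that of 99.7% of the tested genes. In F1 the ratio was 91.5 ± 10.3 and 86.3 ± 14.2 for the C57BL/6J allele and 47.2 ± 6.09 and 48.0 ± 6.27 for the Cast/EiJ allele. GENCODE M1 lists 10 transcripts of Lztfl1, of which 3 code for protein with lengths from 739 to 4070 bp. Lztfl1 also lies within the annotated span of Ccr9 on the other strand, which had means of 26.9 and 48.6 count equivalents in F0 C57BL/6J and F0 Cast/EiJ.

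The replicate 1 libraries that lay apart were left out together, a choice made after seeing the data. The number of genes called was then 7 of 10 in F0, beside 32% of all genes, and 7 between alleles, beside 48.7%. It was 2 for F0 minus allelic difference, beside 12.9%, and 1 for maternal against paternal alleles, beside 0.552%. Bbs4 and Lztfl1 joined the F0 calls, while the allelic call of Ttc8 (adjusted p = 0.0824) and the F0 minus allelic call of Bbs7 (adjusted p = 0.0702) were lost. Differences of Bbs7 were -1.16 in F0 and -0.93 between alleles, and those of Bbs12 were -0.57 and -0.61.

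Further genes of the pathway were read from a pair of lists. The first held Mkks and Bbs10, which with Bbs12 make up the chaperonin-like members of the syndrome, and the 8 subunits of the CCT chaperonin. None of its 10 genes passed in F0 with limma or with edgeR, beside 33.8% and 37.1% of all genes, and none had an unadjusted p under 0.05. Of 9 tested between alleles 2 passed, beside 47% of all genes. Cct4 was higher from Cast/EiJ (log2 0.19, SE 0.075, adjusted p = 0.0452) and Mkks lower (log2 -0.22, SE 0.079, adjusted p = 0.0295), and edgeR on unique hits called 4, beside 42.7%, with Cct4 among them and Mkks not. The median log2 difference of this list was 0.13 in F0 and -0.048 between alleles. For F0 minus allelic difference limma called 0 of 9, with 0 at an unadjusted p under 0.05, and edgeR called 2, beside 14% and 14.1% of all genes.

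The second list held other genes of the syndrome and partners of the BBSome, of which 18 were tested in F0, with 2 called higher and 1 lower in Cast/EiJ by limma, beside 33.8% of all genes, and 2 (Bbip1 and Cep290) by edgeR, beside 37.1%. Bbip1, which encodes a further and very small BBSome subunit, was 1.78-fold lower in F0 Cast/EiJ (log2 -0.84, SE 0.17, adjusted p = 0.00514) and 1.39-fold lower from the Cast/EiJ allele (log2 -0.47, SE 0.11, adjusted p = 0.00149). Cep290, a protein of the ciliary transition zone, was higher in F0 Cast/EiJ (log2 0.31, SE 0.08, adjusted p = 0.0165) and lower from the Cast/EiJ allele (log2 -0.19, SE 0.045, adjusted p = 0.00248), and the difference of 0.50 passed (SE 0.083, adjusted p = 6.02e-04). Ift172, of intraflagellar transport, was higher in F0 (log2 0.22, SE 0.071, adjusted p = 0.0428), though not with edgeR (adjusted p = 0.0593), and did not pass between alleles (log2 0.012).

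Between alleles 8 of 17 genes of the second list passed, 4 higher and 4 lower from Cast/EiJ, beside the 47% of all genes, and edgeR called 6, beside 42.7%. Tulp3, an adaptor that brings receptors into cilia, had the largest difference in the Cast/EiJ direction (log2 0.34, SE 0.066, adjusted p = 4.46e-04). Scaper was also higher from Cast/EiJ (log2 0.23, SE 0.06, adjusted p = 0.00426), and Wdpcp, which encodes a planar cell polarity effector of ciliogenesis, was lower in limma (log2 -0.28, SE 0.11, adjusted p = 0.0426) and not called by edgeR (adjusted p = 0.0724). The median of the list was 0.13 in F0 and -0.0059 between alleles. For maternal against paternal alleles no gene of either list passed in limma or in edgeR, and none had an unadjusted p under 0.05.

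**Figure D5:**
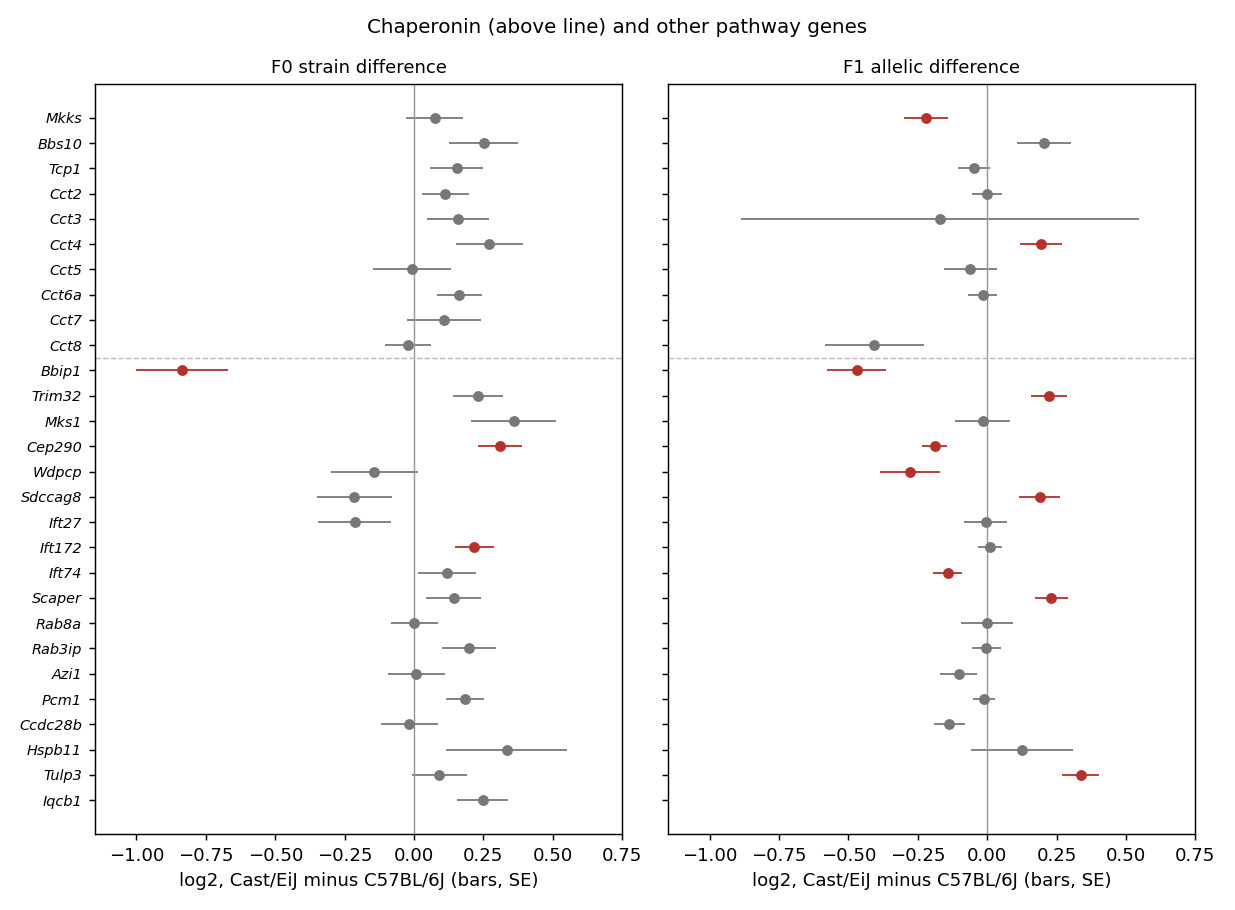
Log2 differences with bars of 1 SE (horizontal axes) of 10 chaperonin and 18 other pathway genes in F0 and between F1 alleles, the former above the dashed line and the latter below it, with calls in red and genes without an allelic test left blank. Bbip1 is lower in both panels, and Cep290 is higher in F0 and lower between alleles.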

How the data were processed

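Retinal poly(A) RNA of 12 pools was sequenced from both ends (101 bp reads), with 1 lane for the libraries of all classes together and a second lane for the F1 libraries. Per the submitters' processing notes and the study's methods, reads were trimmed with Trim Galore 0.2.6, aligned with Bowtie 0.12.9 to Ensembl transcriptomes (NCBI37/mm9) made for each strain or, in F1, for both alleles together, and quantified with MMSEQ. The signal values, here called count equivalents, were estimated and scaled between libraries by the authors, deposited to 3 significant digits, and were scaled no further here. The natural log of expression and its posterior SD are also the authors' MMSEQ estimates. Unique hits are counts deposited without scaling. A table of the authors' own comparisons (posterior probabilities, Bayes factors and per-library estimates, 36 columns) was not used.

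Limma 3.58.1 with trend (R 4.3.3, statmod 1.5.0) was run on log2(count equivalents + 1). Autosomal genes entered the F0 fit if 3 or more of the 6 libraries reached 10 count equivalents. The other comparisons came from a joint model of the F0 libraries and the F1 alleles, in which alleles from one library were blocked (consensus correlation 0.1354). It took autosomal genes that averaged 10 or more allele-specific hits per F1 library. P-values were adjusted by Benjamini-Hochberg over all genes, with calls at an adjusted p under 0.05. EdgeR 4.0.16 and DESeq2 1.42.0 on unique hits were alternatives, with other pseudocounts, filters, TMM factors, log expression, blocks and libraries left out in turn. The fits were tested on simulated data. No duplicated library was found. The exact binomial intervals are at 95% and cover counting error only.

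The 10 genes, the lists and the tests were chosen with earlier results of these data known. All 10 genes are named, and of each list those called in F0 or between alleles, at most 4 per list and comparison by size. The second list has 22 symbols, alternative names included, of which 18 were in the tables. One further gene is not reported here. Values per library were computed with Python 3.11.15, pandas 2.3.3 and scipy 1.17.1. Positions of genes follow the deposited tables (NCBI37), transcripts are from GENCODE M1, and promoters are from RefSeq (GRCm38.p6) and share no coordinates with them.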

Additional observations from a re-analysis of the deposited data

Results flagged for a closer look

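In 3 genes the F0 strain difference and the F1 allelic difference were themselves different by test. F0 minus allelic difference was 0.26 in Bbs2, 1.34 in Bbs5 and -0.22 in Bbs7 on the log2 scale (limma, adjusted p = 0.0211, 0.023 and 0.035). EdgeR on unique hits kept the call for Bbs7 (adjusted p = 0.0408) and not for Bbs2 (0.0728) or Bbs5 (0.0857). In Bbs5 the allelic difference also differed between the reciprocal crosses, at -2.28 in F1 B6xCast and 0.20 in F1 CastxB6, and the maternal minus paternal allele averaged over the crosses was -1.24 (adjusted p = 0.00424), where edgeR on unique hits gave -0.21 (adjusted p = 1).

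In Lztfl1 the log2 allele ratio of unique hits was -1.14 in F1 B6xCast replicate 1 and between -0.44 and -0.30 in the other 5 F1 libraries, so that 1 library lay further from the others than Dixon's test at 95% allows. About 1 in 20 groups of this size would be picked out in this way by chance. The rule was applied to every gene described here, by count equivalents and by unique hits, and picked out this group alone.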

How the results depend on the processing

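Over 17 to 22 alternatives, the F0 and allelic differences of Bbs7 and Bbs12 and the allelic differences of Arl6, Bbs2, Bbs4 and Bbs9 stayed past the threshold with the same direction. The number of the 10 genes called in F0 was 2 without a filter on low values (9.04% of all genes) and 2 to 6 without single libraries (24.2% to 31.6%). For F0 minus allelic difference it was 1 with edgeR on unique hits (14.1% of all genes) and 0 to 3 without single libraries (10.9% to 15.1%). For maternal against paternal alleles it was 0 with edgeR on unique hits (0.291%), also without the replicate 1 libraries (0.335%). EdgeR on unique hits turned Lztfl1 to 0.42 for F0 minus allelic difference (0.22 without the replicate 1 libraries), Lztfl1 to -0.095 for maternal against paternal, and Ttc8 to -0.010 in F0. DESeq2 gave 5.72e-04 for Lztfl1 and -0.0029 for Ttc8 in F0. The deposited log expression gave 0.97, 0.76 and 0.21 for Lztfl1 (F0, allelic, F0 minus allelic), -0.28 and -0.034 for Bbs2 (F0, F0 minus allelic) and -0.21 for Ttc8 in F0. The cause was not tested.

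Leaving out single libraries turned values near 0. These ranged from -0.013 to 0.013 for Arl6 and -0.082 to 0.14 for Lztfl1 as maternal against paternal, and for F0 minus allelic difference from -0.13 to 0.036 for Bbs12 (0.045 without the replicate 1 libraries), -0.10 to 0.0081 for Bbs4 and -0.18 to 0.060 for Lztfl1. Replicate numbers were not used to pair libraries in the main fits. Deviations of same-numbered libraries correlated at 0.03 to 0.33 in F0, highest for replicate 1, and at -0.12 to -0.053 in F1. With a replicate block 6 genes of the 10 passed in F0, with Bbs4 added (adjusted p = 0.0266), beside 44.1% of all genes. The block gave 8 between alleles (47.7%), 3 for F0 minus allelic difference (15.1%) and 1 for maternal against paternal (0.403%). With 186 to 213 hits per allele over all F1 libraries, the allele share of Bbs5 had the widest interval of the 10 genes.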
